A study of Mus musculus with 9 samples.

Results

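The 34 genes described here encode the fibroblast growth factor (FGF) system: 16 secreted ligands, 3 intracellular FGF homologous factors, 5 receptors and 10 feedback genes that FGF signalling is known to induce or that restrain it. They were chosen by symbol (Fgf or Fgfr with a number, Fgfrl1, and the Spry, Spred, Dusp and Etv genes named below) from 14860 genes that had an array row with exactly 1 symbol, with the brightest row kept per gene. Of 40 mouse genes whose symbol met this rule in RefSeq, Fgf2, Fgf11 and Etv1 shared a row with another gene and were left out. Dusp5, Fgf6 and Spry3 were not analysed here.

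Expression was measured on 9 Affymetrix Mouse Exon 1.0 ST arrays, 3 in each of 3 groups, and all cells descended from E14.1 embryonic stem cells of 129/Ola mice. No treatment is named for any group. The cTnT+ group held cardiomyocytes, named for cardiac troponin T, that were grown onward from sorted Flk1+Pdgfra+ cells. The labels do not say whether they were sorted for cTnT, nor how long any group was cultured. The Flk1+Pdgfra+ group held cardiac progenitors sorted for the receptors Flk1 (gene Kdr) and Pdgfra, and the Flk1+ group held progenitors of the same differentiation sorted as Flk1-positive and Pdgfra-negative. Whether replicate arrays hold independent differentiations is not stated, and the p-values therefore reflect array-to-array spread alone, part of which may be technical. All values are RMA expression values on the log2 scale, and a gene is said to rise or fall only where limma gave an adjusted p under 0.05 over all 14860 genes.

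Secreted FGFs bind tyrosine kinase receptors together with heparan sulphate on the cell surface, and the activated receptor signals largely through Ras and the kinase ERK. ERK activity switches on its own brakes, among them the Sprouty and Spred proteins and the ERK phosphatases Dusp4 and Dusp6, and the transcription factors Etv4 and Etv5, so the RNA of these genes is commonly read as a record of the pathway. In the mouse embryo FGF signalling is needed for mesoderm to leave the primitive streak, and later it acts on the progenitors of the heart fields and on the growth of heart muscle.

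The groups carried the markers they are named for, with other cell types also in view. Pdgfra averaged 11.35 ± 0.42 in Flk1+Pdgfra+ and 6.96 ± 0.40 in Flk1+, and Tnnt2 averaged 12.28 ± 0.38 in cTnT+ and 7.01 ± 0.37 in Flk1+Pdgfra+ (SD, n = 3 each). Pdgfra still averaged 11.31 in cTnT+. The mean over 8 fibroblast, smooth muscle and epicardial markers was 9.18 to 11.09 on the cTnT+ arrays and 6.57 to 7.69 on the progenitor arrays, so it moved with every comparison of cTnT+, and its part in them was not tested. The mean over 7 endothelial markers was 10.19 to 10.90 in cTnT+, and that over 6 blood markers was 8.19 to 8.48 in cTnT+, 6.73 to 6.92 in Flk1+Pdgfra+ and 7.77 to 8.69 in Flk1+. Among the progenitors replicate 3 of each group stood apart. The pluripotency factor Nanog was at 10.99 on Flk1+ replicate 3, against 6.21 and 6.43 on the other Flk1+ arrays. It was at 10.56, 10.56 and 11.33 in Flk1+Pdgfra+, so a high value was not particular to that array. The mean over 7 endothelial markers was 6.29 on Flk1+Pdgfra+ replicate 3, against 8.21 and 8.38 on replicates 1 and 2. The mean over 5 primitive streak and nascent mesoderm markers was 11.53 to 11.67 in Flk1+Pdgfra+ and 9.01 to 9.97 in Flk1+. In cTnT+ that mean was 6.83 to 7.08, and its part in the comparisons was not tested. The arrays are of bulk RNA, so fewer cells of a type and less RNA per cell cannot be told apart.

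The calls included ligands, of which 6 were lower and Fgf1 higher in the cTnT+ group than in Flk1+Pdgfra+ cells. They also included the receptors Fgfr3, Fgfrl1 and Fgfr2, which were higher in the cTnT+ group than in 1 or both progenitor groups. Against Flk1+Pdgfra+, 3 of the 34 genes rose in cTnT+ and 7 fell, against a background of 22.5% of all genes higher and 18.7% lower. Of the 16 ligands 1 rose and 6 fell (43.8% called), of the 5 receptors 2 rose and 0 fell (40%), and of the 10 feedback genes 0 rose and 1 fell (10%). The share of ligands called was thus near the 41.2% of all genes. Against Flk1+, 4 genes rose in cTnT+ and 1 fell, where 22.6% of all genes were higher and 16.6% lower. Of the ligands 12.5% were called there, of the receptors 60% and of the feedback genes 0%, against 39.2% of all genes. In Flk1+Pdgfra+ against Flk1+, 2 genes rose and 0 fell, where 4.64% of all genes were higher and 5.87% lower. At an unadjusted p under 0.05, limma gave 8 FGF genes higher and 0 lower there, against 14.7% of all genes higher and 11.2% lower. The median difference of the 34 genes was -0.14, 0.04 and 0.35 in these comparisons, and that of all genes 0.004, 0.053 and 0.068. The share of FGF genes called was below that of all genes in each comparison (29.4% against 41.2%, 14.7% against 39.2%, and 5.88% against 10.5%). Each pair of comparisons shares a group, so they are not independent of each other.

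**Figure D1:**
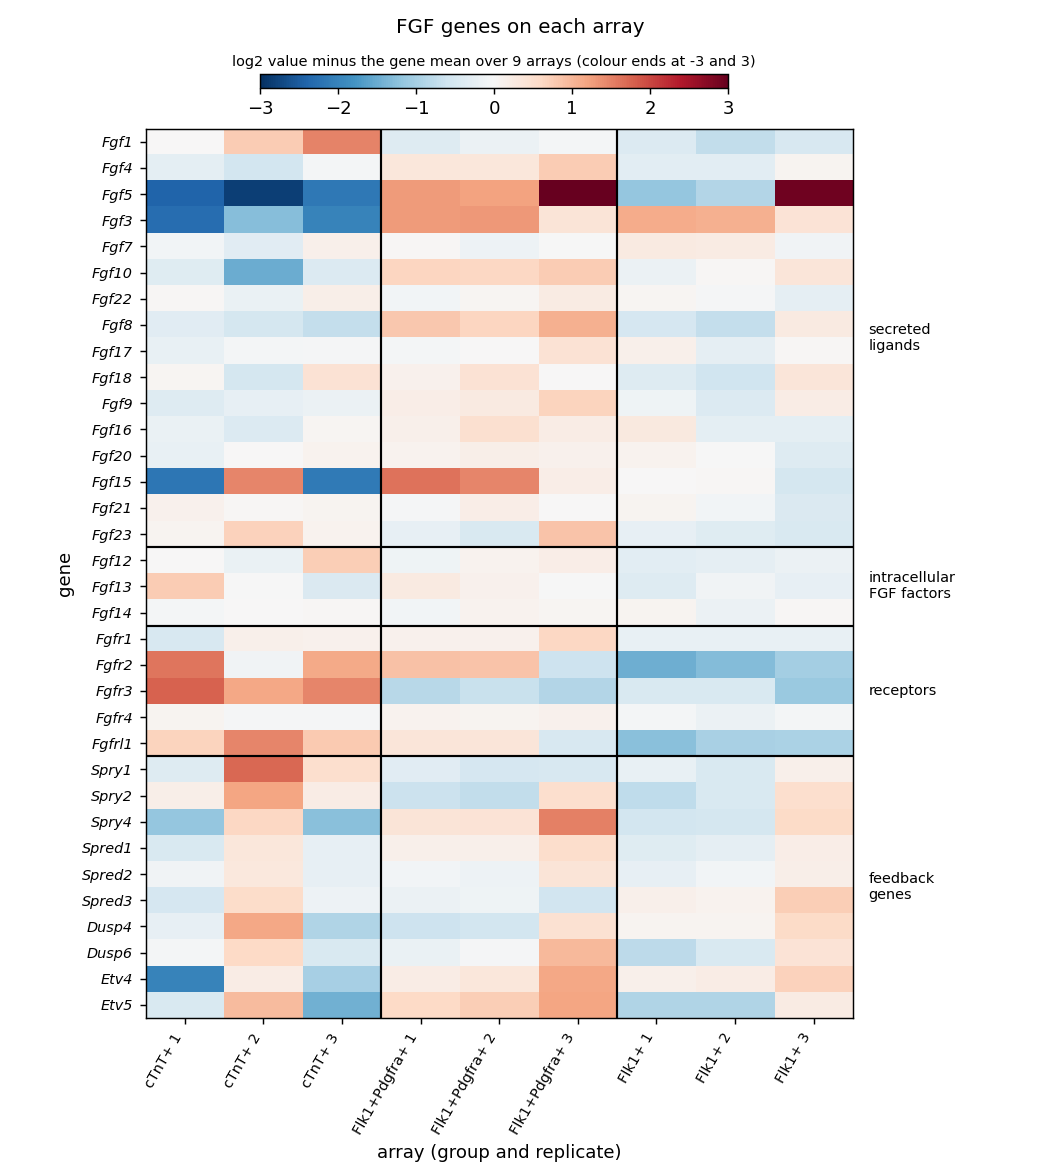
Each cell gives the log2 value of 1 of the 34 FGF genes (rows, by role) on 1 of the 9 arrays (columns, by group) minus that gene's mean over the 9 arrays, with colours ending at -3 and 3. Fgf5 and Fgf3 are low on every cTnT+ array, Fgfr3 is high on every cTnT+ array, and the feedback genes are high within their group on cTnT+ replicate 2 and on replicate 3 of both progenitor groups, Spry1 and Spred3 excepted in Flk1+Pdgfra+.

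The scaling of the arrays bears on the balance of these calls. Centring each array on its median moved the median difference of all genes in cTnT+ against Flk1+Pdgfra+ to -0.32, and in cTnT+ against Flk1+ to -0.28. With that shift 1 FGF gene rose and 15 fell in cTnT+ against Flk1+Pdgfra+, where 13.4% of all genes were higher and 36.4% lower, in place of 22.5% and 18.7%. Every called difference kept its direction under both other scalings, quantile normalization and median centring, but not every call was kept. In cTnT+ against Flk1+Pdgfra+ the call of Fgf1 was lost under both (adjusted p = 0.0592 and 0.0934). That of Fgfrl1 was lost under median centring (adjusted p = 0.0937).

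Among the ligands, Fgf5 and Fgf3 had the largest differences. Fgf5, a ligand known as a marker of the epiblast, was at 5.47, 5.04 and 5.73 in cTnT+, at 9.16, 9.09 and 11.86 in Flk1+Pdgfra+, and at 6.71, 7.00 and 10.80 in Flk1+. Every cTnT+ array was below every progenitor array, and the third array of each progenitor group was far above the other two. The difference of cTnT+ from Flk1+Pdgfra+ was -4.62 ± 1.13 (SE, adjusted p = 0.0111), and that from Flk1+ was -2.75 (adjusted p = 0.0894), or -1.43 without replicate 3 of both progenitor groups (adjusted p = 0.0021). The mean of cTnT+, 5.42, lay under the lower quartile of every array (5.60 to 5.69), so a fold of Fgf5 is no exact measure. Between the progenitors Fgf5 differed by 1.87 (95% interval -0.72 to 4.46, adjusted p = 0.345). Leaving out 1 progenitor array gave 0.96 (without Flk1+Pdgfra+ replicate 3, adjusted p = 0.686) to 3.18 (without Flk1+ replicate 3, adjusted p = 0.0321), with 1.14 and 1.28 without Flk1+ replicates 1 and 2. Without replicate 3 of both groups it was 2.27 (adjusted p = 0.00199). Replicate 3 stood apart in both groups, so leaving it out narrows the spread by construction. Values without it, here and below, are given as a description only.

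Fgf3, a ligand of the developing inner ear and of the primitive streak, was at 6.16, 7.15 and 6.44 in cTnT+, at 9.72, 9.74 and 8.82 in Flk1+Pdgfra+, and at 9.54, 9.51 and 8.85 in Flk1+. The cTnT+ arrays did not overlap with either progenitor group, whereas the progenitor groups overlapped each other. Fgf3 fell by 2.84 ± 0.34 (SE) on the log2 scale in cTnT+ against Flk1+Pdgfra+, a 7.16-fold difference (adjusted p = 0.000307), and it was 6.58-fold lower in cTnT+ than in Flk1+ (adjusted p = 0.000463). It was the only FGF gene called lower in cTnT+ against Flk1+. Between the progenitors it differed by 0.12 (95% interval -0.66 to 0.90).

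Fgf3 lies next to Fgf4 and Fgf15 on mouse chromosome 7, with 0 protein-coding genes between neighbours in RefSeq. Fgf4, which drives embryonic stem cells out of the naive state, was at 8.18, 7.93 and 8.42 in cTnT+, at 8.81, 8.82 and 9.25 in Flk1+Pdgfra+, and at 8.16, 8.16 and 8.57 in Flk1+. All Flk1+Pdgfra+ arrays were thus above all arrays of the other groups. Fgf4 was 1.72-fold lower in cTnT+ than in Flk1+Pdgfra+ (adjusted p = 0.00874), while its difference of 0.66 between the progenitors missed the threshold (adjusted p = 0.0547).

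Fgf15, the mouse counterpart of human FGF19 and a gut hormone in the adult, was at 6.87, 10.50 and 6.92 in cTnT+, at 10.67, 10.50 and 9.24 in Flk1+Pdgfra+, and at 9.05, 9.07 and 8.51 in Flk1+. On cTnT+ replicate 2 it was 3.61 above the mean of the other cTnT+ arrays and equal to a Flk1+Pdgfra+ array. With all arrays the difference of cTnT+ from Flk1+Pdgfra+ was -2.04 (95% interval -4.12 to 0.04, adjusted p = 0.11), and that from Flk1+ was -0.78 (adjusted p = 0.552). Leaving out 1 cTnT+ array gave -3.24 to -1.43 against Flk1+Pdgfra+ and -1.98 to -0.17 against Flk1+, and only the values without replicate 2 were called (adjusted p = 0.00101 and 0.00904). Fgf15 stood apart on that array, so leaving it out lowers Fgf15 and its spread by construction, and those values are a description only.

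Fgf8, the ligand that mesoderm needs to migrate away from the primitive streak, was at 8.02, 7.84 and 7.64 in cTnT+, at 9.17, 9.00 and 9.44 in Flk1+Pdgfra+, and at 7.87, 7.64 and 8.64 in Flk1+. The Flk1+Pdgfra+ arrays were above every other array. Fgf8 was 2.59-fold lower in cTnT+ than in Flk1+Pdgfra+ (adjusted p = 0.00274) and 2.23-fold higher in Flk1+Pdgfra+ than in Flk1+ (difference 1.16 ± 0.25, SE, adjusted p = 0.0237). The call between the progenitors was lost without any single array of those groups except Flk1+ replicate 3 (adjusted p 0.0554 to 0.087).

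Fgf10, a ligand of limb and lung buds and of the second heart field, was at 10.95, 9.84 and 10.92 in cTnT+, at 11.97, 11.95 and 12.07 in Flk1+Pdgfra+, and at 11.14, 11.35 and 11.68 in Flk1+. The 3 groups did not overlap, with Flk1+Pdgfra+ highest and cTnT+ lowest. Fgf10 fell by 1.43 ± 0.29 (SE) in cTnT+ against Flk1+Pdgfra+ (2.69-fold, adjusted p = 0.00445). Its differences of -0.82 between cTnT+ and Flk1+ (adjusted p = 0.0528) and of 0.61 between the progenitors (adjusted p = 0.231) were not called.

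Fgf1, a ligand that can bind every FGF receptor, was the 1 ligand that rose in the cTnT+ group. It was at 6.76, 7.51 and 8.23 in cTnT+, at 6.35, 6.58 and 6.68 in Flk1+Pdgfra+, and at 6.33, 6.01 and 6.27 in Flk1+, so that all cTnT+ arrays lay above all progenitor arrays. The rise was 2.45-fold against Flk1+ (adjusted p = 0.012) and 1.94-fold against Flk1+Pdgfra+ (adjusted p = 0.0407). The call against Flk1+Pdgfra+ was lost without any 1 array other than cTnT+ replicate 1 (adjusted p 0.0511 to 0.12). It was also lost with quantile normalization (adjusted p = 0.0592) and with median centring (adjusted p = 0.0934).

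Fgf9, which in the heart comes from the epicardium and endocardium and promotes the growth of muscle cells, averaged 7.00 ± 0.11 in cTnT+ and 7.65 ± 0.25 in Flk1+Pdgfra+ (SD, n = 3 each), a 1.57-fold fall (adjusted p = 0.0196). That call was lost without Flk1+Pdgfra+ replicate 3 (adjusted p = 0.0614) or cTnT+ replicate 1 (adjusted p = 0.0631). The other 8 ligands were not called in any comparison. Fgf7, Fgf16, Fgf17, Fgf18, Fgf20, Fgf21, Fgf22 and Fgf23 spanned 0.49 to 1.33 over the 9 arrays, the widest being the phosphate hormone Fgf23 at 7.31 to 8.64. Fgf7, a ligand made by mesenchyme for epithelium, stayed at 4.63 to 5.25, below the lower quartiles of the arrays in every group.

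The intracellular factors Fgf12, Fgf13 and Fgf14 are not secreted and bind voltage-gated sodium channels. None of the 3 was called in any comparison, with median differences of -0.02 in cTnT+ against Flk1+Pdgfra+, 0.34 in cTnT+ against Flk1+ and 0.31 in Flk1+Pdgfra+ against Flk1+. Fgf13 was at 8.97, 8.19 and 7.77 in cTnT+, at 8.48, 8.34 and 8.19 in Flk1+Pdgfra+, and at 7.82, 8.11 and 7.97 in Flk1+. Fgf14 spanned only 5.85 to 6.13 over the 9 arrays, and Fgf12 had every group mean below the lower quartiles.

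Fgfr3, a receptor known for restraining bone growth, had the smallest p of the 34 genes. It was at 9.88, 9.27 and 9.58 in cTnT+, at 7.27, 7.45 and 7.23 in Flk1+Pdgfra+, and at 7.66, 7.66 and 6.99 in Flk1+. The lowest cTnT+ array was well above the highest progenitor array. Fgfr3 was 4.80-fold higher in cTnT+ than in Flk1+Pdgfra+ (difference 2.26 ± 0.21, SE, adjusted p = 9.59e-05) and 4.41-fold higher than in Flk1+ (adjusted p = 0.000158). Between the progenitors it differed by -0.12 (95% interval -0.61 to 0.37).

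Fgfrl1, a receptor that lacks the kinase domain, was at 10.65, 11.43 and 10.76 in cTnT+, at 10.34, 10.33 and 9.50 in Flk1+Pdgfra+, and at 8.73, 9.00 and 9.02 in Flk1+. The 3 groups did not overlap and stood in that order, and it was the 1 FGF gene called in all 3 comparisons. It was 4.10-fold higher in cTnT+ than in Flk1+ (adjusted p = 0.000668), 1.86-fold higher in cTnT+ than in Flk1+Pdgfra+ (adjusted p = 0.0297) and 2.21-fold higher in Flk1+Pdgfra+ than in Flk1+ (difference 1.14 ± 0.27, SE, adjusted p = 0.034). The progenitor call was lost without replicate 1 or 2 of either group (adjusted p 0.1 to 0.126) and with same-numbered arrays paired (adjusted p = 0.0584). The call of cTnT+ against Flk1+Pdgfra+ was lost without Flk1+Pdgfra+ replicate 3 (adjusted p = 0.0745), without cTnT+ replicate 2 (adjusted p = 0.0897) and with median centring (adjusted p = 0.0937).

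Fgfr2, known for its roles in epithelium and bone, was at 9.73, 8.02 and 9.26 in cTnT+, at 9.00, 8.98 and 7.50 in Flk1+Pdgfra+, and at 6.65, 6.82 and 7.09 in Flk1+. Both Pdgfra-bearing groups were above every Flk1+ array, and they overlapped each other. It was 4.43-fold higher in cTnT+ than in Flk1+ (adjusted p = 0.0102). The difference of 1.64 between the progenitors missed the threshold (95% interval 0.47 to 2.81, adjusted p = 0.0809). It was 2.25 without replicate 3 of both groups (adjusted p = 0.0322), again as a description only. Leaving out 1 progenitor array gave 1.39 to 2.14, with only the value without Flk1+Pdgfra+ replicate 3 called (adjusted p = 0.0319).

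Fgfr1, the receptor that gastrulating mesoderm relies on, was at 11.14, 11.76 and 11.73 in cTnT+, at 11.73, 11.73 and 12.24 in Flk1+Pdgfra+, and at 11.38, 11.40 and 11.39 in Flk1+. Its differences were within -0.36 and 0.51 and none was called (adjusted p 0.145 to 0.589). The Flk1+Pdgfra+ arrays were all above the Flk1+ arrays. Fgfr4 spanned 6.92 to 7.24 over all arrays.

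**Figure D2:**
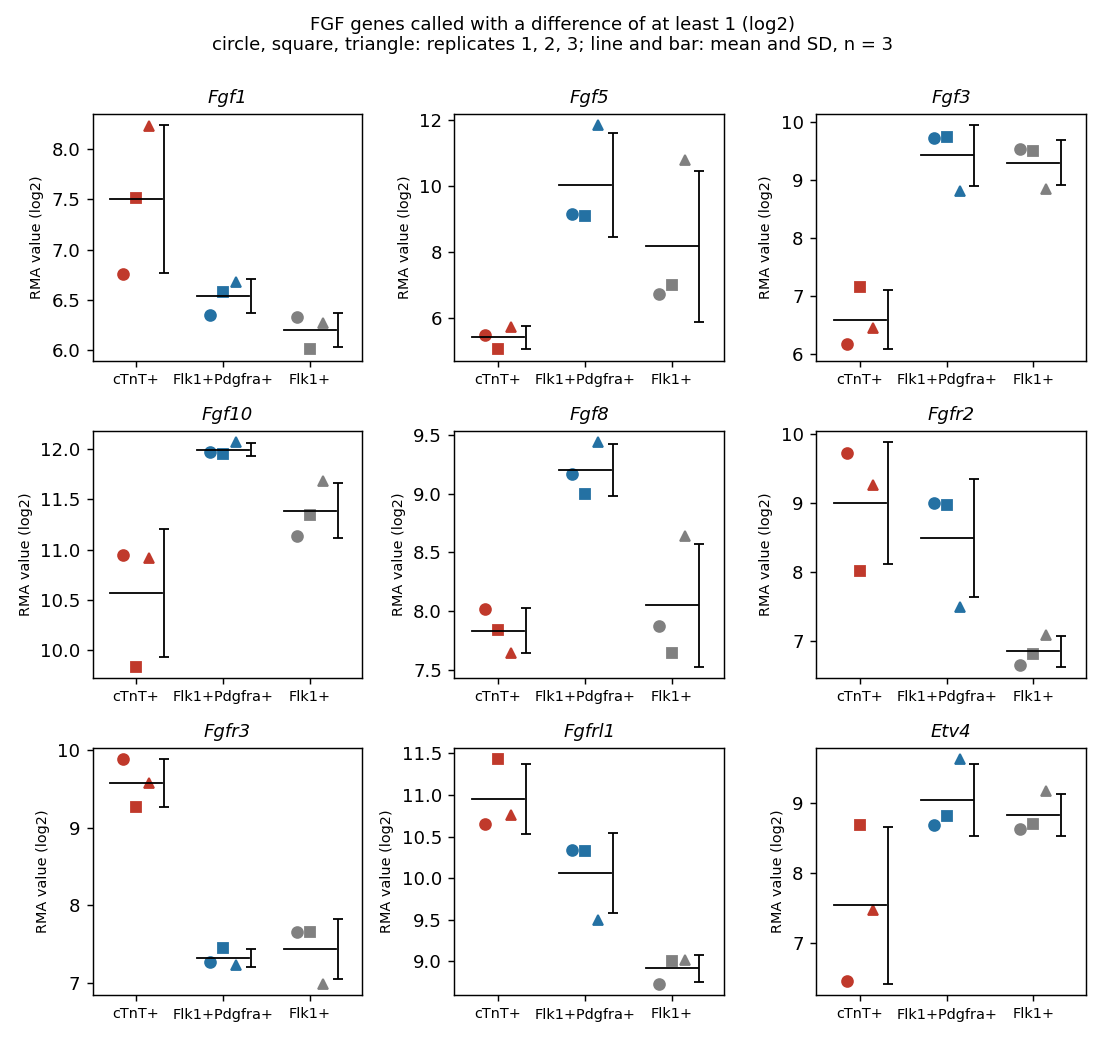
Panels give the RMA value (log2) on each array for the 9 FGF genes called in any comparison with a difference of at least 1, with cTnT+, Flk1+Pdgfra+ and Flk1+ from left to right, symbols for replicates 1 to 3, a line at the mean and a bar of 1 SD (n = 3). Fgfr3 is at 9.27 or above in cTnT+ and at 7.66 or below in the progenitors, and Fgf5 on replicate 3 of each progenitor group lies far above its group.

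Feedback genes varied widely between arrays of a group, and 1 of the 10 was called. Etv4, an ETS factor induced by FGF, was at 6.46, 8.69 and 7.47 in cTnT+, at 8.68, 8.81 and 9.62 in Flk1+Pdgfra+, and at 8.62, 8.70 and 9.17 in Flk1+. Replicate 2 of cTnT+ overlapped with both progenitor groups, and the other cTnT+ arrays were below them. Etv4 fell by 1.50 ± 0.51 (SE) in cTnT+ against Flk1+Pdgfra+ (2.82-fold, adjusted p = 0.0465). The call was lost under 11 of 19 alternatives, among them leaving out any 1 array except cTnT+ replicate 2 (adjusted p 0.0531 to 0.141). Without cTnT+ replicate 2, on which Etv4 was highest in its group, the difference was -2.07 (adjusted p = 0.00496), given as a description only.

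On cTnT+ replicate 2, all 10 feedback genes were above both other cTnT+ arrays, 9 of them by more than 0.5. Over all genes 38.9% were above both and 3.32% by more than 0.5, and this tally was made after the values were seen. The ERK pathway inhibitor Spry1 was at 8.98, 11.09 and 9.87 on cTnT+ replicates 1, 2 and 3, its relative Spry4 at 9.48, 11.27 and 9.38, and Etv5, the close relative of Etv4, at 9.59, 10.99 and 8.61. Dusp4, a nuclear ERK phosphatase, was at 11.15, 12.56 and 10.50. The median excess of the 10 genes over the mean of the other arrays was 1.33, from 0.48 for Spred2 to 1.89 for Etv5. The excess of the median gene of all was 0.04.

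Replicate 3 of each progenitor group stood out in a like way. On Flk1+ replicate 3 all 10 feedback genes were above both other Flk1+ arrays, 5 of them by more than 0.5 (40.0% and 10.6% of all genes), with a median excess of 0.57. On Flk1+Pdgfra+ replicate 3, 8 of 10 were above both other arrays and 5 by more than 0.5 (44.9% and 5.46% of all genes), with a median excess of 0.69, while Spry1 and Spred3 were not. Dusp6, the cytoplasmic ERK phosphatase, was at 11.01, 11.18 and 12.17 in Flk1+Pdgfra+ and at 10.43, 10.76 and 11.61 in Flk1+. Spry2 was at 9.02, 8.92 and 10.17 in Flk1+Pdgfra+ and at 8.90, 9.19 and 10.16 in Flk1+. In both genes the third array of each group was high and the groups overlapped.

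Marker levels moved with these arrays. The mean over 9 pluripotency markers was 8.77 on Flk1+ replicate 3, against 6.05 and 6.37 on the other Flk1+ arrays, and that over 4 epithelial markers was 9.84, against 6.88 and 6.99. On Flk1+Pdgfra+ replicate 3 the pluripotency mean was 8.56, against 8.18 and 8.31. On cTnT+ replicate 2 the pluripotency mean was 6.87, against 6.65 and 6.50 on replicates 1 and 3. Among its members Tdgf1 was at 11.60, against 9.91 and 9.10, while Pou5f1 was at 6.29 (6.08 and 6.42) and Nanog at 6.55 (6.91 and 7.09). The mean over 8 fibroblast, smooth muscle and epicardial markers was 9.18 there, against 9.64 and 11.09, and that over 7 endothelial markers was 10.90, against 10.19 and 10.29. Their part in the feedback gene levels was not tested.

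**Figure D3:**
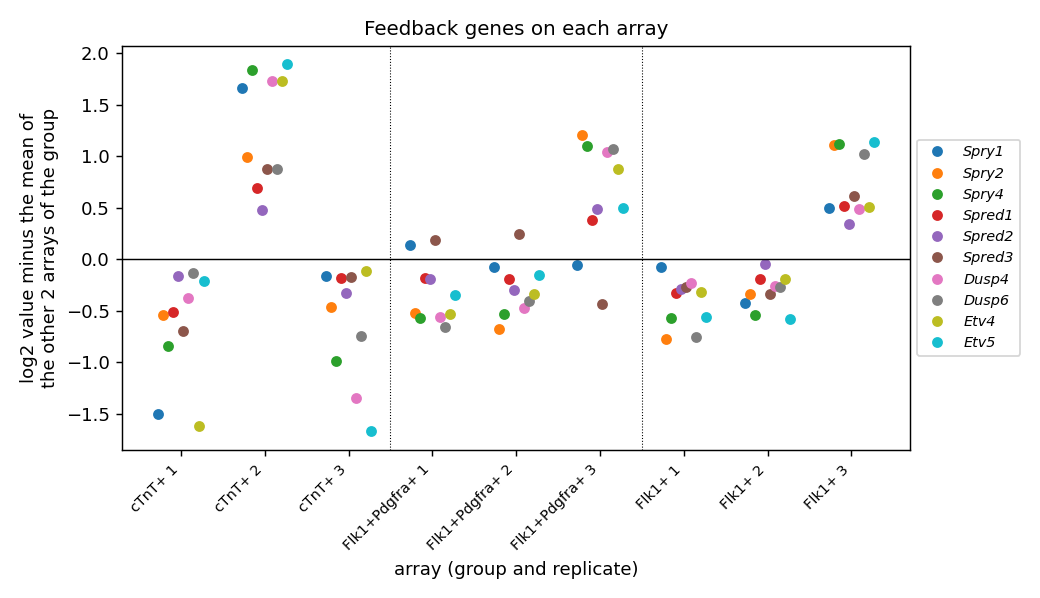
Points give, for each of the 10 feedback genes, the log2 value on an array minus the mean of the other 2 arrays of its group, with cTnT+, Flk1+Pdgfra+ and Flk1+ from left to right. All 10 genes lie above 0 on cTnT+ replicate 2 (0.48 to 1.89) and on Flk1+ replicate 3 (0.34 to 1.14), and 8 of 10 on Flk1+Pdgfra+ replicate 3.

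With all arrays, 9 of the 10 feedback genes were not called in cTnT+ against Flk1+Pdgfra+. Spry4, Etv5 and Spred1, an inhibitor of Ras to ERK signalling, differed by -1.37, -1.16 and -0.39 (adjusted p 0.0875 to 0.227), and Spry1 and Spry2 by 1.07 (adjusted p = 0.0933) and 0.82 (adjusted p = 0.193). These values depended on single cTnT+ arrays. Without cTnT+ replicate 1, Spry1 was higher in cTnT+ by 1.57 against Flk1+Pdgfra+ (adjusted p = 0.00959) and by 1.30 against Flk1+ (adjusted p = 0.0229). Spry1 was lowest in cTnT+ on replicate 1, so leaving it out raises Spry1 by construction, and both values are a description only. Without cTnT+ replicate 2, Spry4 differed from Flk1+Pdgfra+ by -1.98 (adjusted p = 0.0114), Etv5 by -1.78 (adjusted p = 0.0152) and Spred1 by -0.62 (adjusted p = 0.0488), and Spry1 by 0.52 (adjusted p = 0.195). In that fit 11 FGF genes were lower and 1 higher in cTnT+ than in Flk1+Pdgfra+ (17.6% of all genes lower and 19.5% higher), and 3 were lower and 4 higher than in Flk1+ (15.9% and 19.8%). Replicate 2 was singled out because the feedback genes were high on it, so leaving it out lowers them by construction, and those calls are given as a description only. In the fit of all arrays, Dusp6, Dusp4, Spred2 and Spred3 differed by -0.22 to 0.26 in cTnT+ against Flk1+Pdgfra+ (adjusted p 0.515 to 0.819).

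Between the progenitors, the third arrays of both groups varied together (correlation of deviations 0.46), and the comparison was also made within replicate numbers. Replicates 1 and 2 correlated as highly across numbers (0.347 and 0.352) as within them (0.251 and 0.325). Pairing those by number is thus borne out by neither the labels nor the values. With the replicate number as a block in a limma fit of the 6 progenitor arrays, a setting chosen after seeing the data, 10 FGF genes were higher in Flk1+Pdgfra+ than in Flk1+ and 0 lower, in place of 2 and 0. In that fit 5.47% of all genes were higher and 6.86% lower. The 10 were the ligands Fgf4, Fgf5, Fgf8, Fgf9, Fgf10 and Fgf15 and the feedback genes Spry4, Etv5, Dusp6 and Spred1. The same block in the fit of all 9 arrays gave 3 higher and 0 lower, with Fgf4 added (adjusted p = 0.00828). Leaving out replicate 3 of both groups gave 6 higher and 0 lower (7.73% and 6.36% of all genes), and leaving out Flk1+ replicate 3 alone gave 5 and 0 (8.79% and 6.75%). Those arrays stood apart, so leaving them out narrows the spread by construction, and these counts are a description only.

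Spry4 had nearly the same difference in each pair: Flk1+Pdgfra+ exceeded Flk1+ by 0.95, 0.95 and 0.94 in replicates 1, 2 and 3 (adjusted p = 0.00761 with the block, and 0.339 without it). Its values were 11.04, 11.06 and 12.15 in Flk1+Pdgfra+ and 10.08, 10.11 and 11.21 in Flk1+, so the groups overlapped only through Flk1+ replicate 3. Fgf4 differed by 0.65, 0.65 and 0.68 (adjusted p = 0.0151 with the block). Replicates 1 and 2 of a group were nearly alike over all genes (correlation 0.997 in Flk1+Pdgfra+ and 0.996 in Flk1+). The pairs of replicates 1 and 2 thus largely repeat each other, and like differences in 3 pairs are not 3 separate agreements. Etv5 was at 10.65, 10.78 and 11.22 in Flk1+Pdgfra+ and at 9.15, 9.14 and 10.29 in Flk1+, a difference of 1.36 on average (adjusted p = 0.0199 with the block, 0.177 without). Not every feedback gene leaned that way: Spry1, Spred3 and Dusp4 were lower in Flk1+Pdgfra+ in all 3 pairs, with mean differences of -0.28, -0.63 and -0.49, and none of them was called (adjusted p 0.109 to 0.289 with the block). In all, 19 of the 34 FGF genes were higher in Flk1+Pdgfra+ in all 3 pairs, which is 55.9%, against 32.8% of all genes.

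**Figure D4:**
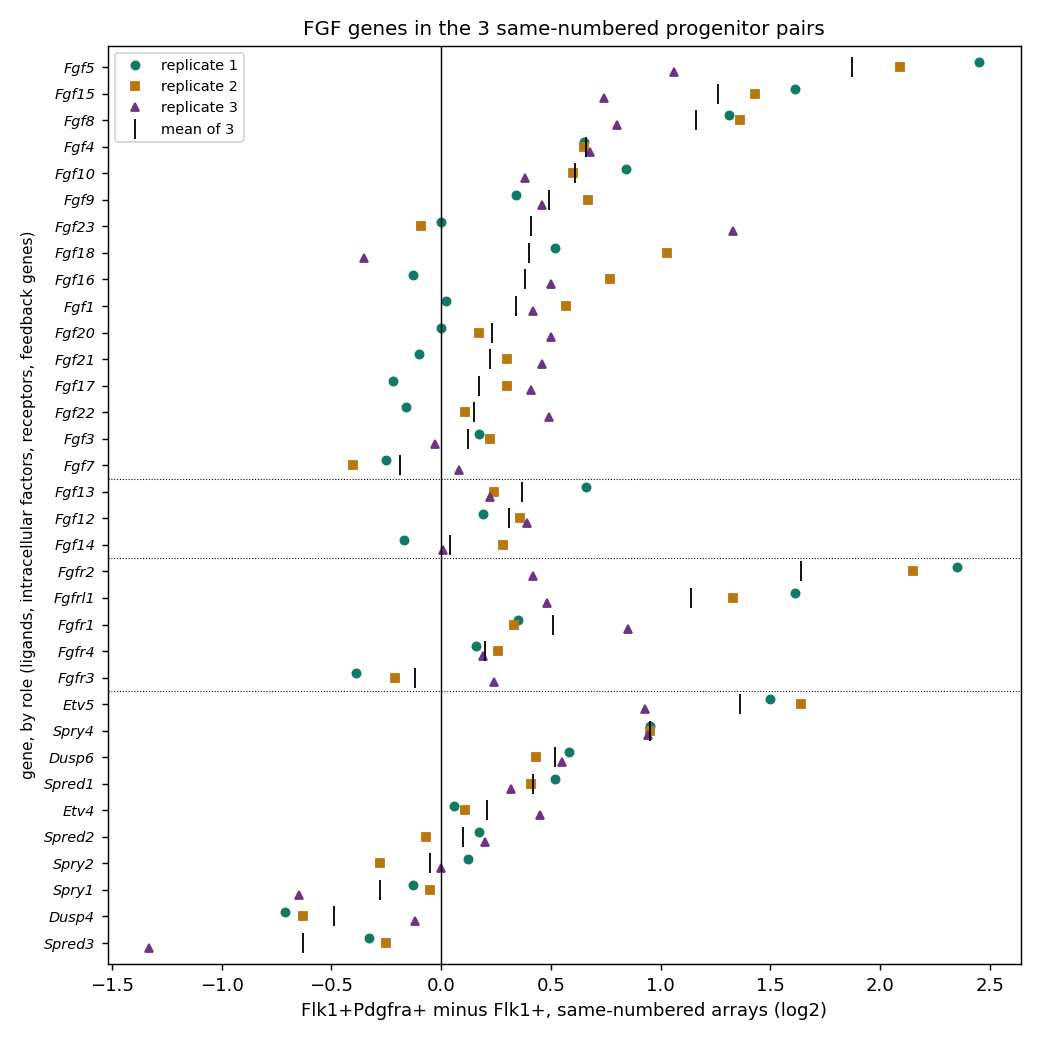
Points give the difference of Flk1+Pdgfra+ minus Flk1+ (log2) between arrays with the same replicate number for each of the 34 FGF genes, grouped by role, with a black bar at the mean of 3. The 3 points of Spry4 and of Fgf4 nearly coincide, at 0.94 to 0.95 and 0.65 to 0.68, while those of Fgfr2 run from 0.42 to 2.35.

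Promoters of 4 feedback genes that were high together on cTnT+ replicate 2 and Flk1+ replicate 3 are shown, as the RefSeq windows from 250 bases before to 50 bases after the start site (assembly GRCm38.p6). Capitals mark matches on either strand to the ETS core CCGGAA or to the octamers TGAATGAA and TGAATGGA, which are bound by the repressor Capicua that ERK signalling removes. The windows are chr10:99262981-99263280 (plus strand) for Dusp6, chr16:22439521-22439820 (minus strand) for Etv5, chr14:105896770-105897069 (minus strand) for Spry2 and chr7:29168598-29168897 (minus strand) for Spred3.
Dusp6: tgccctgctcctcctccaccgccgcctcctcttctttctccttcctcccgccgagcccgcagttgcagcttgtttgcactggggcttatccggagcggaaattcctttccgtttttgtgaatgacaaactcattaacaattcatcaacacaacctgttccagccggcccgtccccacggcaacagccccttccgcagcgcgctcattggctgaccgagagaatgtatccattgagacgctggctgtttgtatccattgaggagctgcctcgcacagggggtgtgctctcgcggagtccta
Etv5: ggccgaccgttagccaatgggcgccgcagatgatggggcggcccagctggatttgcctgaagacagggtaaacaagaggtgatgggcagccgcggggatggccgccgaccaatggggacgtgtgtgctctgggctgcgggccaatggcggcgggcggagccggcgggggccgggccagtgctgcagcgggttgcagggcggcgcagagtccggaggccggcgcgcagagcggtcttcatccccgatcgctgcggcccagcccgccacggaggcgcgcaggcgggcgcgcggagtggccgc
Spry2: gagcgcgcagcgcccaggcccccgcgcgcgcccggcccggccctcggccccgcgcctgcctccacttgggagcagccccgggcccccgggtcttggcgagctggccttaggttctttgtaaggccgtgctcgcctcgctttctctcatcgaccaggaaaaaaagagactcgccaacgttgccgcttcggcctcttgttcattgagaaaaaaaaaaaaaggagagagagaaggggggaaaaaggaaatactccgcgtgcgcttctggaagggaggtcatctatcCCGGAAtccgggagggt
Spred3: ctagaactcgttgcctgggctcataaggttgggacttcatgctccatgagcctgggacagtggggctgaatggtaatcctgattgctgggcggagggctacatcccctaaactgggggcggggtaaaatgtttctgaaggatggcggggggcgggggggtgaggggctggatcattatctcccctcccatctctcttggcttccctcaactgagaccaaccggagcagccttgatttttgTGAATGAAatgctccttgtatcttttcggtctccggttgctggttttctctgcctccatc
Spry2 held 1 ETS match, starting 33 bases after the start site, and Spred3 held 1 Capicua match, starting 10 bases before it, while the Dusp6 and Etv5 windows held neither. RefSeq windows were found for 7 of the 10 feedback genes, 8 windows in all, of which 1 held the ETS core and 1 a Capicua octamer. Among all 32851 windows of this length 14.9% held the ETS core and 2.47% a Capicua octamer. A match is a run of letters, not a measured binding site.

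Other genes of the pathway came from 3 lists. Of 28 measured genes for co-receptors and heparan sulphate, 9 rose and 3 fell in cTnT+ against Flk1+Pdgfra+ (median 0.26), where 22.5% of all genes were higher and 18.7% lower. Among them Flrt2, a membrane protein that binds FGF receptors, was 5.27-fold higher (adjusted p = 0.000546), the heparan sulphate proteoglycan Sdc4 4.52-fold higher (adjusted p = 0.00664), and the sulphotransferase Hs6st1 2.70-fold higher (adjusted p = 0.00039). Against Flk1+, 11 rose in cTnT+ and 1 fell (median 0.56), where 22.6% of all genes were higher and 16.6% lower. Between the progenitors 2 rose and 1 fell (median 0.24), where 4.64% of all genes were higher and 5.87% lower: the glypican Gpc3 was 2.39-fold higher in Flk1+Pdgfra+ (adjusted p = 0.0095), the heparan sulphate polymerase Ext1 was 1.98-fold higher (adjusted p = 0.0316), and the basement membrane proteoglycan Hspg2 was 2.12-fold lower (adjusted p = 0.000944).

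Of 18 measured adaptors and members of the Ras to ERK cascade, 0 rose and 5 fell in Flk1+Pdgfra+ against Flk1+ (median -0.04, with 4.64% of all genes higher and 5.87% lower). The docking protein Gab2 averaged 7.89 in Flk1+Pdgfra+ and 10.53 in Flk1+, 6.23-fold lower (adjusted p = 0.00229). Its relative Gab1 was 2.43-fold lower (adjusted p = 0.000327), and the scaffold Ksr1 2.87-fold lower (adjusted p = 0.00642). The mean over 7 endothelial markers was 6.29 to 8.38 on the Flk1+Pdgfra+ arrays and 10.42 to 11.62 on the Flk1+ arrays, and its part in these differences was not tested. In cTnT+ against Flk1+Pdgfra+ 8 of the 18 rose and 2 fell (median 0.35, with 22.5% and 18.7% of all genes), with Gab2 8.65-fold and Gab1 2.46-fold higher. Against Flk1+, 6 rose in cTnT+ and 2 fell (median 0.16, with 22.6% and 16.6% of all genes). The FGF inhibitor Il17rd, named after its values were seen, was at 8.27, 10.68 and 9.53 in cTnT+, at 10.89, 10.87 and 11.42 in Flk1+Pdgfra+, and at 9.58, 9.74 and 10.96 in Flk1+, with the same arrays high as for Etv4.

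The third list held 21 genes, early responders to ERK together with the transcription factors Elk1, Elk3, Elk4 and Srf. Of these, 3 rose and 3 fell in cTnT+ against Flk1+Pdgfra+ (median -0.25), where 22.5% of all genes were higher and 18.7% lower. Against Flk1+, 3 rose in cTnT+ and 8 fell (median -0.54), where 22.6% of all genes were higher and 16.6% lower. Between the progenitors 0 rose and 6 fell in Flk1+Pdgfra+ (median -0.12), where 4.64% were higher and 5.87% lower. Myc was 8.38-fold lower in cTnT+ than in Flk1+Pdgfra+ (adjusted p = 0.000271), Fos was 7.48-fold lower (adjusted p = 0.00933), and Ier3, an early response gene, was 5.67-fold higher. Between the progenitors the ETS factor Elk3 was 4.63-fold lower (adjusted p = 0.00221) and the phosphatase Dusp2 3.85-fold lower in Flk1+Pdgfra+ cells (adjusted p = 0.00204). On cTnT+ replicate 2, 16 of these 21 genes were above both other cTnT+ arrays and 4 by more than 0.5 (38.9% and 3.32% of all genes). The median excess was 0.31. On Flk1+Pdgfra+ replicate 3 the counts were 13 and 4 (44.9% and 5.46% of all genes), with a median excess of 0.18. On Flk1+ replicate 3 they were 15 and 8 (40.0% and 10.6% of all genes), with a median excess of 0.40. Egr1 was at 8.58, 8.60 and 8.32 in cTnT+, at 8.89, 10.20 and 10.74 in Flk1+Pdgfra+, and at 8.08, 8.86 and 9.89 in Flk1+, highest on replicate 3 of each progenitor group.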

How the data were processed

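The authors deposited log2 values, which per the labels are RMA signals of core genes made with the Transcriptome Analysis Console; the submitters' processing notes name R 3.3.1. RMA subtracts background, equalises array distributions and summarises each gene's probes. No source used here gives the array annotation's version or build. The table held 23332 rows on 9 arrays, with array medians of 7.26 to 7.53. Without detection calls, and with so few arrays, precision for dim genes is limited. Symbols came from the platform annotation, updated through Entrez identifiers in RefSeq (GRCm38.p6) for 14941 of 14996 rows with 1 symbol (1019 had several, 7317 none).

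Groups were compared with limma 3.58.1 (R 4.3.3), using lmFit and eBayes, two-sided, with 1 coefficient per group and 6 residual degrees of freedom. Benjamini-Hochberg adjustment ran over 14860 genes, and calls needed an adjusted p under 0.05. The fit was also run on simulated independent values. Those held no array that stood apart, so that run checks the code and not the calls given here. Alternatives were quantile normalization, median centring, a filter on dim genes, other row choices, other moderation, array weights, a replicate block, and leaving out arrays. The genes, lists and alternatives were chosen with earlier results of these data known. All 34 genes were named, with values on every array for those called with a difference of at least 1, and for others whose arrays stood apart. Up to 4 called genes were named per list and comparison.

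Deviations from group means of same-numbered arrays correlated across genes at 0.251, 0.325 and 0.46 between the progenitor groups. The main fit took no pairing. Numbers were used only in the fits with a replicate block and for the differences within progenitor pairs. Replicates 1 and 2 correlated as highly crosswise (0.347 and 0.352), so these values match only the third arrays. Pairing replicates 1 and 2 rests on their numbers alone, and the labels do not say that numbers mark shared cultures. With cTnT+ the same-numbered correlations were 0.023 to 0.095, and no pairing was taken.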

Additional observations from a re-analysis of the deposited data

How the results depend on the processing

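Of the 17 calls of an FGF gene in a comparison, 11 kept their call and direction under every alternative run: Fgfr3, Fgfrl1, Fgfr2, Fgf1 and Fgf3 in cTnT+ against Flk1+, and Fgfr3, Fgf3, Fgf4, Fgf5, Fgf8 and Fgf10 in cTnT+ against Flk1+Pdgfra+. The other 6 were lost under at least 1, and 38 differences not called were called under at least 1. In Flk1+Pdgfra+ against Flk1+, 690 genes were higher and 872 lower. Leaving out 1 array gave 203 to 1306 higher and 461 to 1003 lower, array weights gave 4521 and 3017, and leaving out replicate 3 of both progenitor groups gave 1148 higher. Fitting only the groups compared gave 713 higher, and the replicate block on the 6 progenitor arrays gave 813. The 2 FGF genes higher became 0 to 5 without 1 array, 16 with array weights (and 2 lower), 1 with only the groups compared, 6 without replicate 3 of both progenitor groups and 10 with the replicate block on the 6 progenitor arrays. The weights of replicate 3 were 0.494 in Flk1+Pdgfra+ and 0.251 in Flk1+. In cTnT+ against Flk1+Pdgfra+, 3348 genes were higher and 2778 lower. Median centring gave 1994 higher and 5406 lower, array weights gave 3940 and 3081, and fitting only the groups compared gave 3307 and 2781. Leaving out 1 array gave 2655 to 3603 higher and 2246 to 3004 lower. The 3 FGF genes higher became 1 with median centring, 5 with array weights, 1 with only the groups compared and 1 to 4 without 1 array, and the 7 lower became 15 with median centring and 5 to 11 without 1 array. In cTnT+ against Flk1+, 3363 genes were higher and 2464 lower. Median centring gave 1909 higher and 4721 lower, and testing every row gave 4076 lower. The number lower was 2466 with the replicate block, 2516 where dim genes were left out, 3638 with quantile normalization, 2502 with trend and robust moderation and 3091 with array weights. It was 2536 without replicate 3 of both progenitor groups and 1880 to 2464 without 1 array. There the 1 FGF gene lower became 3 with the replicate block, 2 where dim genes were left out, 4 with quantile normalization, 6 with median centring, 2 with trend and robust moderation, 3 with array weights, 2 without replicate 3 of both progenitor groups and 1 to 3 without 1 array. The causes were not tested. Among those 38, the differences that changed sign under an alternative were Fgf8 in cTnT+ against Flk1+ (0.15 with array weights, 0.08 without Flk1+ replicate 3 and 0.08 without replicate 3 of both progenitor groups, against -0.22 with all arrays; -0.42 to 0.08 without 1 array), Fgf9 in the same comparison (0.10, 0.00 and 0.00 there, against -0.16; -0.31 to 0.00 without 1 array) and Fgf23 in cTnT+ against Flk1+Pdgfra+ (-0.07 with quantile normalization, -0.08 with median centring and -0.00 without Flk1+Pdgfra+ replicate 2, against 0.25; -0.00 to 0.65 without 1 array). The replicate block changed the calls given in the report, and in the fit of all 9 arrays it also added Fgf10 (adjusted p = 0.0435) and Fgf5 (adjusted p = 0.0185) as lower in cTnT+ than in Flk1+. It removed none of the 17 calls in that fit.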

Other observations

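Rows that carry the symbol of an FGF gene beside another gene's could not be named for either. The row shared by Fgf11 and Spem1 was at 9.76, 9.23 and 8.37 in cTnT+, at 6.44, 6.52 and 6.65 in Flk1+Pdgfra+, and at 6.67, 6.20 and 6.84 in Flk1+, so the cTnT+ arrays lay above all progenitor arrays. The row shared by Etv1 and Gm5454 was at 11.45, 12.36 and 11.10 in cTnT+, at 11.29, 11.15 and 11.62 in Flk1+Pdgfra+, and at 10.53, 10.53 and 11.24 in Flk1+. It was highest in its group on cTnT+ replicate 2 and on the third array of each progenitor group, the arrays on which Etv4 and Etv5 were highest too. The row shared by Fgf2 and Bbs12 was at 6.04, 5.65 and 6.26 in cTnT+ and at 5.08 to 5.45 on the progenitor arrays.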
